A study of Mus musculus with 10 samples.

Results

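HILPDA and 9 other genes of the lipid droplet were followed across 10 xenograft tumours from mice on 3 diets. The set comprised HILPDA, PLIN2, PLIN3, PNPLA2, ABHD5, DGAT1, DGAT2, MGLL, SOAT1 and G0S2, 10 of the 33538 human genes counted, and all 10 passed the filter on low counts that left 16013 genes. HILPDA was chosen by its measured difference between the oils, so that difference is given below as a description with no test. The other 9 were selected by function, with earlier results of these data known.

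A lipid droplet is a store of neutral lipid, mainly triglyceride and cholesterol ester, wrapped in a phospholipid monolayer and a coat of proteins. The perilipins coat it, DGAT and SOAT enzymes make its contents, and a chain of lipases releases fatty acids from it. Cells given long-chain fatty acids place much of the surplus in droplets, which limits the toxicity and the peroxidation of free polyunsaturated fatty acids. HILPDA is a small droplet protein that binds and inhibits the triglyceride lipase PNPLA2. It is known as a target of hypoxia-inducible factor 1 and as a gene induced by fatty acids through PPAR receptors.

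The tumours were grown from DAOY, a human medulloblastoma line long established in culture, grafted on the flank of female nude mice, which lack mature T cells. The groups were control on ordinary chow (3 libraries), DHA oil, which supplied docosahexaenoic acid (3 libraries), and fish oil (4 libraries), all after 30 days of treatment. Fish oil was read as the treatment with both DHA and eicosapentaenoic acid (EPA), since the design text names no other arm. All grafts came from 1 cell line. The sources used here do not give the oil dose, the age of the mice or which mouse a library came from. A p-value therefore speaks for these libraries alone. In edgeR it sets a difference against a spread estimated over all 3 diets, and partly from other genes.

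Libraries held 6187116 to 10035702 counted reads. Values are CPM, counts scaled to a common library total (counts per 10 to the power 6) after TMM normalisation. Fish oil replicates 4 and 2 stood apart on the first principal component of all genes (-52.9 and -21.4, against -1.7 to 19.1 in the others), so results that rest on them are also given without them. Gene names could be paired with identifiers for these 10 members alone. Markers of tumour, fat, muscle and immune cells, and further droplet, hypoxia and PPAR genes, were therefore not measured, and their part in the results was not tested. In bulk tissue, fewer cells of a type and less RNA per cell cannot be told apart.

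HILPDA (ENSG00000135245) was highest in fish oil tumours and lowest in DHA oil tumours. It stood at 84.7, 136.5, 130.0 and 143.8 CPM in fish oil replicates 1 to 4, at 62.8, 57.7 and 62.1 CPM in the DHA oil libraries, and at 88.4, 56.9 and 107.7 CPM in the controls. Fish oil averaged 124 ± 26.6 CPM (SD, n = 4), control 84.3 ± 25.7 CPM (SD, n = 3) and DHA oil 60.9 ± 2.78 CPM (SD, n = 3). The DHA oil libraries lay close together, fish oil replicate 1 was well below the other fish oil libraries, and the control range overlapped both oils.

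In the fit, HILPDA was 2.04-fold higher in fish oil tumours than in DHA oil tumours (log2 fold change 1.03 ± 0.20, SE), the contrast it was chosen for. Without fish oil replicates 2 and 4 it was 0.82. Against control, its log2 fold change was -0.47 with DHA oil (95% interval -0.93 to -0.01) and 0.56 with fish oil (0.13 to 0.99). These values come from the oil libraries it was chosen on, so they too are a description. Without fish oil replicates 2 and 4 the fish oil value was 0.35. Control replicate 3 was the highest control, and without it the values for DHA oil and fish oil were -0.26 and 0.77. Control replicate 2 was the lowest, and without it they were -0.69 and 0.34.

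**Figure D1:**
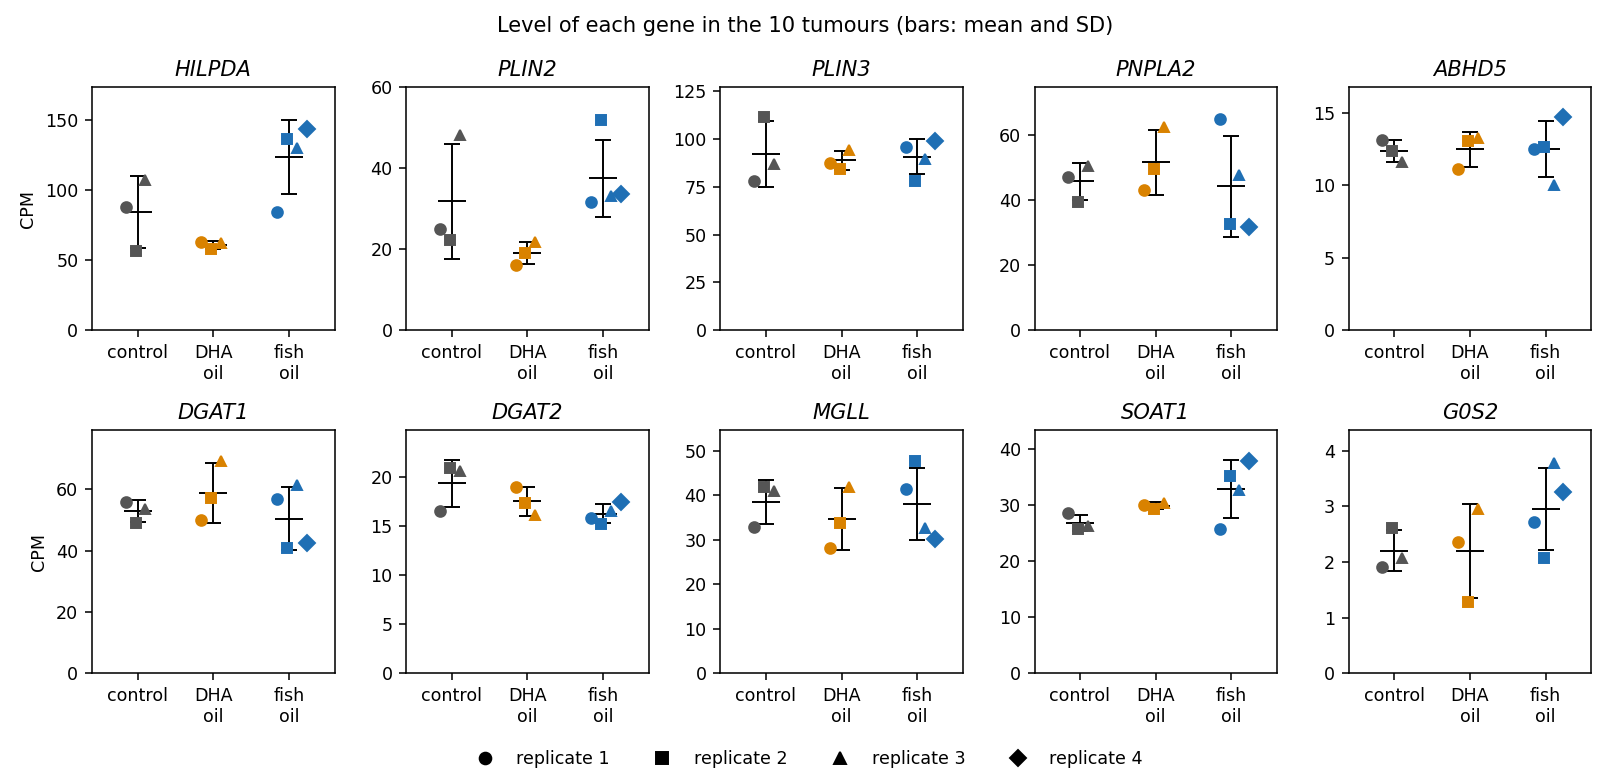
CPM of the 10 genes (vertical axes, each from 0) in control, DHA oil and fish oil tumours. Symbols are libraries by replicate number, which pairs no samples, and bars give the mean and SD. HILPDA and PLIN2 are low in all 3 DHA oil libraries, although control overlaps both oils for HILPDA and overlaps fish oil for PLIN2. The other panels show overlapping diets apart from SOAT1 in DHA oil against control.

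PLIN2 (ENSG00000147872), the coat protein found on droplets of most cell types and itself induced by fatty acids, had the same order of diets as HILPDA. It stood at 16.2, 19.1 and 21.7 CPM with DHA oil, 24.9, 22.3 and 48.3 CPM in control, and 31.5, 51.8, 33.2 and 33.7 CPM with fish oil. Every DHA oil library was below every control and every fish oil library, although the gap to the lowest control was narrow, and control overlapped fish oil. The means were 19.0 ± 2.75 CPM (SD, n = 3), 31.8 ± 14.3 CPM (SD, n = 3) and 37.6 ± 9.54 CPM (SD, n = 4) in that order.

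The fitted difference of PLIN2 between the oils was about as large as that of HILPDA, 1.98-fold higher with fish oil. Its log2 fold change was 0.99 ± 0.25 (SE; 95% interval 0.45 to 1.53), and it ranked 14 of 16013 genes by p in that comparison. It did not pass adjustment in the fit with the filter on low counts (edgeR adjusted p = 0.875), and it passed in edgeR with no such filter (adjusted p = 0.0217). Over the alternatives the adjusted p ran from 0.0217 to 1.00, and the log2 fold change from 0.77 to 1.09. The lowest value came with fish oil replicates 2 and 4 both left out.

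Against control, PLIN2 had a log2 fold change of -0.74 with DHA oil (95% interval -1.31 to -0.17) that did not pass (edgeR, Benjamini-Hochberg adjusted p = 1.00). Control replicate 3 carried much of it, since the value was -0.32 without that library. It was -0.89 without control replicate 1 and -0.94 without control replicate 2. With fish oil the log2 fold change was 0.25 (-0.28 to 0.77; edgeR adjusted p = 0.999), and leaving out single libraries moved it between 0.05 (without fish oil replicate 2 or control replicate 2) and 0.67 (without control replicate 3).

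PLIN3 (ENSG00000105355), a perilipin that moves between the cytosol and newly formed droplets, varied less. It ranged from 78.1 to 111.6 CPM over all 10 libraries, and both ends of that range were control libraries (78.1, 111.6 and 87.0 CPM in control). The DHA oil libraries held 87.5, 84.4 and 94.5 CPM and the fish oil libraries 95.8, 78.2, 89.6 and 99.1 CPM. Between the oils its log2 fold change was 0.03, with a 95% interval of -0.26 to 0.32. Against control it was -0.05 (-0.36 to 0.25) with DHA oil and -0.02 (-0.31 to 0.26) with fish oil. A difference of PLIN3 between the oils as large as the fitted one of PLIN2 lies outside its interval, which was not a test of one gene against the other.

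The lipolysis genes come next. PNPLA2 (ENSG00000177666) encodes adipose triglyceride lipase, which takes the first fatty acid from a triglyceride and is the enzyme that HILPDA inhibits. It stood at 47.3, 39.6 and 50.6 CPM in control, 43.0, 49.6 and 62.7 CPM with DHA oil, and 65.0, 32.8, 47.8 and 31.9 CPM with fish oil. Fish oil held both the highest and the lowest libraries, with replicates 2 and 4 at the bottom. The log2 fold change was 0.18 (95% interval -0.32 to 0.67) for DHA oil against control, -0.06 (-0.52 to 0.41) for fish oil against control, and -0.23 (-0.70 to 0.23) between the oils, turning to 0.29 against control and 0.12 between the oils without fish oil replicates 2 and 4.

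ABHD5 (ENSG00000011198), the co-activator of PNPLA2, was among the steadiest of the set. Its libraries lay between 10.03 and 14.8 CPM, with means of 12.4 ± 0.77 CPM in control (SD, n = 3), 12.5 ± 1.20 CPM with DHA oil (SD, n = 3) and 12.5 ± 1.93 CPM with fish oil (SD, n = 4). The fitted difference between the oils was 0.00 on the log2 scale (95% interval -0.36 to 0.36). Its sign turned negative in the 8 alternatives other than leaving out single libraries, at no more than 0.16 in size. Against control the log2 fold change was 0.01 with either oil (95% interval -0.38 to 0.40 in the DHA oil comparison, -0.36 to 0.38 in the other).

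G0S2 (ENSG00000123689), the other protein inhibitor of PNPLA2 in the set, rested on few reads, 13 to 29 per library. It stood at 1.91, 2.61 and 2.07 CPM in control, 2.36, 1.27 and 2.95 CPM with DHA oil, and 2.72, 2.06, 3.78 and 3.26 CPM with fish oil. The groups overlapped, and fish oil differed from DHA oil by a log2 fold change of 0.43 with a wide interval of -0.28 to 1.14. The interval is wide enough to hold a difference as large as that of HILPDA. Without DHA oil replicate 2, the lowest library for G0S2, the value was 0.15, and without DHA oil replicate 3 it was 0.71. Against control the values were -0.01 (-0.79 to 0.78) with DHA oil and 0.42 (-0.30 to 1.15) with fish oil.

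MGLL (ENSG00000074416), monoacylglycerol lipase, completes lipolysis by releasing the last fatty acid from glycerol. It stood at 32.9, 41.8 and 41.1 CPM in control, 28.1, 33.8 and 41.9 CPM with DHA oil, and 41.5, 47.8, 32.7 and 30.2 CPM with fish oil, with overlap between all groups. Its log2 fold change was -0.15 (95% interval -0.56 to 0.26) for DHA oil against control, -0.02 (-0.40 to 0.36) for fish oil against control, and 0.13 (-0.25 to 0.52) between the oils.

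Among the genes that fill the droplet, DGAT1 and DGAT2 encode unrelated enzymes of the last step of triglyceride synthesis. DGAT1 (ENSG00000185000) stood at 55.9, 49.1 and 53.6 CPM in control, 50.1, 57.1 and 69.3 CPM with DHA oil, and 56.8, 40.9, 61.5 and 42.3 CPM with fish oil. As for PNPLA2, fish oil replicates 2 and 4 were the lowest of all libraries. The log2 fold change was 0.15 (95% interval -0.21 to 0.52) for DHA oil against control, -0.07 (-0.42 to 0.27) for fish oil against control and -0.23 (-0.57 to 0.11) between the oils. Without fish oil replicates 2 and 4 it was 0.16 for fish oil against control and 0.01 between the oils.

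DGAT2 (ENSG00000062282) varied little, from 15.2 to 20.9 CPM over all libraries. Its mean was 19.4 ± 2.43 CPM in control (SD, n = 3), 17.5 ± 1.46 CPM with DHA oil (SD, n = 3) and 16.3 ± 0.97 CPM with fish oil (SD, n = 4). Control replicate 1 (16.6 CPM) overlapped both oils. The log2 fold change was -0.25 (95% interval -0.56 to 0.07) for fish oil against control, -0.14 (-0.48 to 0.19) for DHA oil against control and -0.11 (-0.42 to 0.21) between the oils.

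SOAT1 (ENSG00000057252) esterifies cholesterol for storage in droplets. It stood at 28.5, 25.7 and 26.3 CPM in control, 30.0, 29.3 and 30.4 CPM with DHA oil, and 25.8, 35.2, 32.7 and 37.9 CPM with fish oil. The DHA oil libraries were all above the controls by a small margin, and fish oil replicates 2 and 4 were the highest of all libraries. Its log2 fold change was 0.16 (95% interval -0.17 to 0.48) for DHA oil against control, 0.30 (-0.01 to 0.60) for fish oil against control and 0.14 (-0.16 to 0.44) between the oils. Without fish oil replicates 2 and 4, the fish oil values were 0.12 against control and -0.03 against DHA oil.

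HILPDA is left out of the counts that follow, since the oil libraries chose it. Of the other 9 genes, 0 passed the edgeR threshold (adjusted p under 0.05) for DHA oil against control, where 0.0% of all genes tested did. At an unadjusted p under 0.05 there was 1, PLIN2, lower, against 2.74% of all genes. The groups did not overlap for 2 of the 9, PLIN2 and SOAT1, against 10.6% of all genes. The median log2 fold change of the 9 was -0.006, that of G0S2, beside 0.003 over all genes.

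For fish oil against control, 0 of the 9 passed the edgeR threshold, against 0.00624% of all genes, and 0 had an unadjusted p under 0.05, against 3.48%. No member was free of overlap between these groups, where 3.74% of all genes were. The median log2 fold change of the 9 was -0.019, that of MGLL, beside 0.008 over all genes.

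Between the oils, 0 of the 9 passed the edgeR threshold, as did 0.0% of all genes tested. PLIN2 alone among the 9 had an unadjusted p under 0.05, against 4.84% of all genes, and it alone did not overlap, against 4.95%. The median log2 fold change of the 9 was 0.03, beside 0.01 over all genes. DESeq2 and limma-voom called 0 of the 9 in each of the 3 comparisons. The comparisons share libraries, DHA oil and fish oil the same controls, so their values are set side by side and not counted as repeats of each other.

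**Figure D2:**
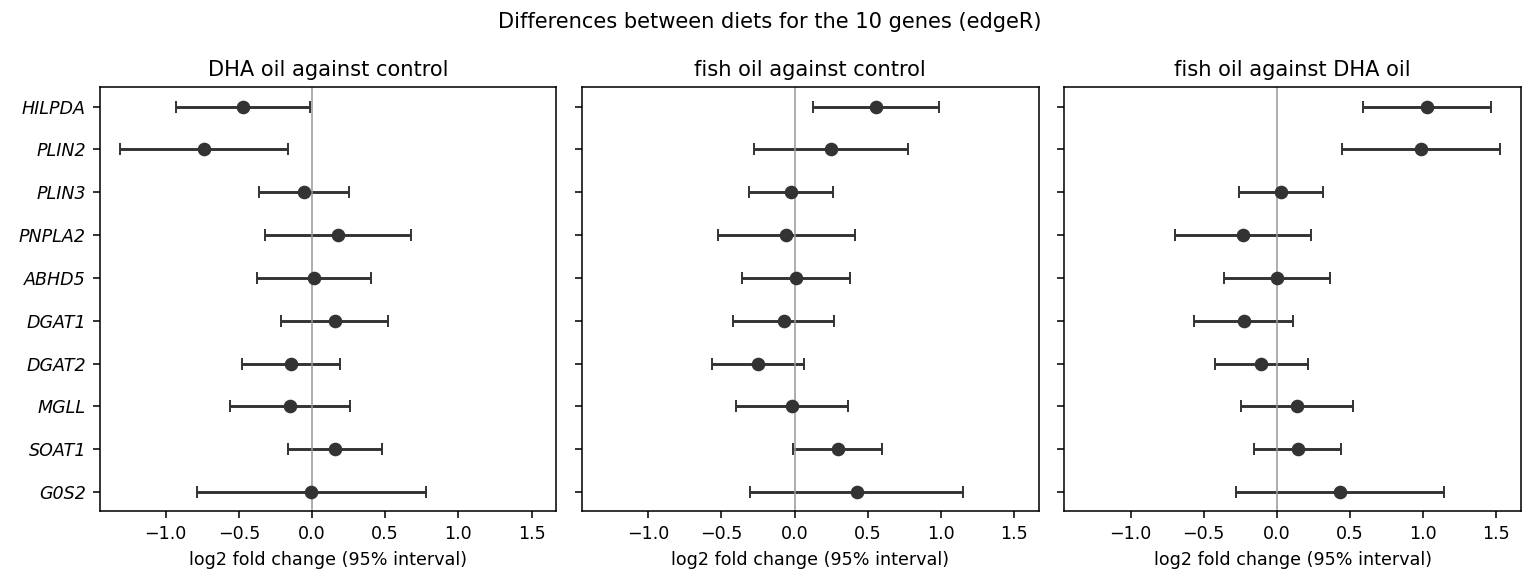
Log2 fold change of each gene (points) with its 95% interval (bars) from edgeR, for DHA oil against control, fish oil against control and fish oil against DHA oil. Between the oils HILPDA, chosen for this difference, is at 1.03 and PLIN2 at 0.99, while the other 8 genes lie between -0.23 and 0.43 with intervals that include 0.

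Whether HILPDA moved with the other genes was asked over the 10 libraries, as the correlation of log2 CPM. Two-sided p came from 100000 permutations, adjusted over the correlations of HILPDA with all 16012 other genes. Values over all libraries include the difference between the oils that HILPDA was chosen for, so they and their p are a description. PLIN2 had the highest correlation with HILPDA among the 9, with Pearson r = 0.834 (n = 10, permutation p = 0.00389) and Spearman rho = 0.818 (permutation p = 0.00547). Leaving out fish oil replicates 4 and 2, the libraries farthest from the median HILPDA level, gave r = 0.815 (n = 8, permutation p = 0.0135), and leaving out single libraries gave 0.795 to 0.872. PLIN2 ranked 52 of the 16012 genes by r. The adjusted p was 0.305 for r and 0.405 for rho, and 0 of the 16012 genes passed. The smallest p that these permutations can give is 1e-05, and a gene alone at that p would not pass the adjustment either.

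With each gene centred on its diet means, r for PLIN2 was 0.633 (permutation within diets, p = 0.118), so within diets the relation did not pass. The 3 controls had the same order for both genes (replicate 2 lowest, replicate 3 highest), and fish oil replicate 1 was the lowest fish oil library for both. At the top of the fish oil group they parted, since replicate 4 had the most HILPDA and replicate 2 the most PLIN2. In the DHA oil group the orders differed, since replicate 1 had the most HILPDA (62.8 CPM) and the least PLIN2 (16.2 CPM). Each diet has too few libraries for a correlation of its own.

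**Figure D3:**
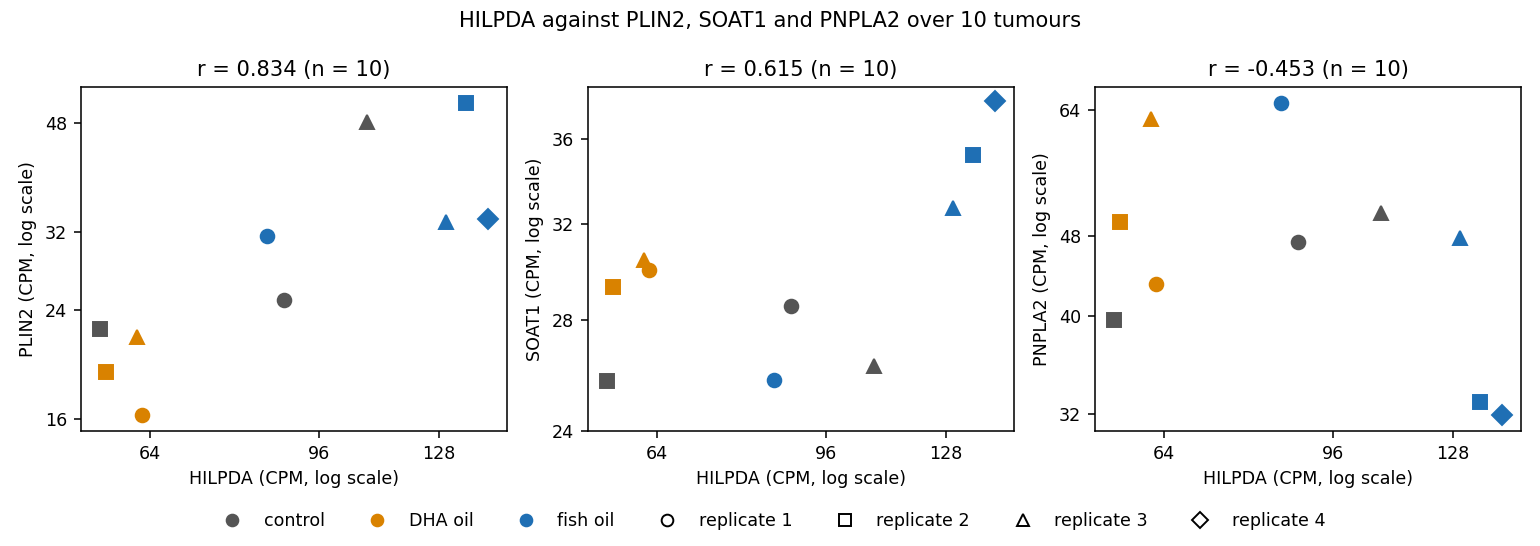
CPM of PLIN2, SOAT1 and PNPLA2 (vertical axes, log scale) against HILPDA (horizontal axis, log scale), 1 point per tumour with colour for diet and shape for replicate. PLIN2 is higher in the libraries with more HILPDA (r = 0.834), while the SOAT1 and PNPLA2 panels turn on fish oil replicates 2 and 4 at the right.

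SOAT1 was next, with r = 0.615 (n = 10, permutation p = 0.0621) and rho = 0.648 (permutation p = 0.0483). Its adjusted p was 0.487 for r and 0.546 for rho. This relation rested on fish oil replicates 2 and 4, as r was 0.174 without them (n = 8, permutation p = 0.671). Centred on diet means, r was 0.713 (permutation within diets, p = 0.0600).

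The lipase and the triglyceride enzymes had negative correlations that did not pass. PNPLA2 had r = -0.453 (rho = -0.370) and DGAT1 r = -0.445 (rho = -0.370), with permutation p of 0.189 and 0.202 for r and 0.297 and 0.295 for rho. Both signs turned without fish oil replicates 2 and 4, to 0.144 and 0.192. DGAT2 had r = -0.340 (rho = -0.309), with permutation p of 0.326 and 0.386, and r = -0.185 without those libraries.

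For the remaining members too, the correlation with HILPDA did not pass. PLIN3 had r = -0.274 (rho = -0.188), with permutation p of 0.447 and 0.607, and G0S2 had r = 0.379 (rho = 0.261), with permutation p of 0.284 and 0.469. Without fish oil replicates 2 and 4 these r were -0.343 and 0.407, and centred on diet means they were -0.574 (permutation within diets, p = 0.312) and -0.062. MGLL had r = 0.023 (rho = -0.224; permutation p of 0.948 and 0.537) and ABHD5 r = -0.030 (rho = 0.079; permutation p of 0.935 and 0.837), and without the same libraries r was -0.047 and -0.610.

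Over the 9 genes, 4 correlations with HILPDA were above 0 and 5 below, and the median r was -0.03, beside 0.02 over all 16012 genes. An unadjusted permutation p under 0.05 for r was reached by 1 of the 9, PLIN2, against 10.8% of all genes. None of the 9 passed after adjustment.

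**Figure D4:**
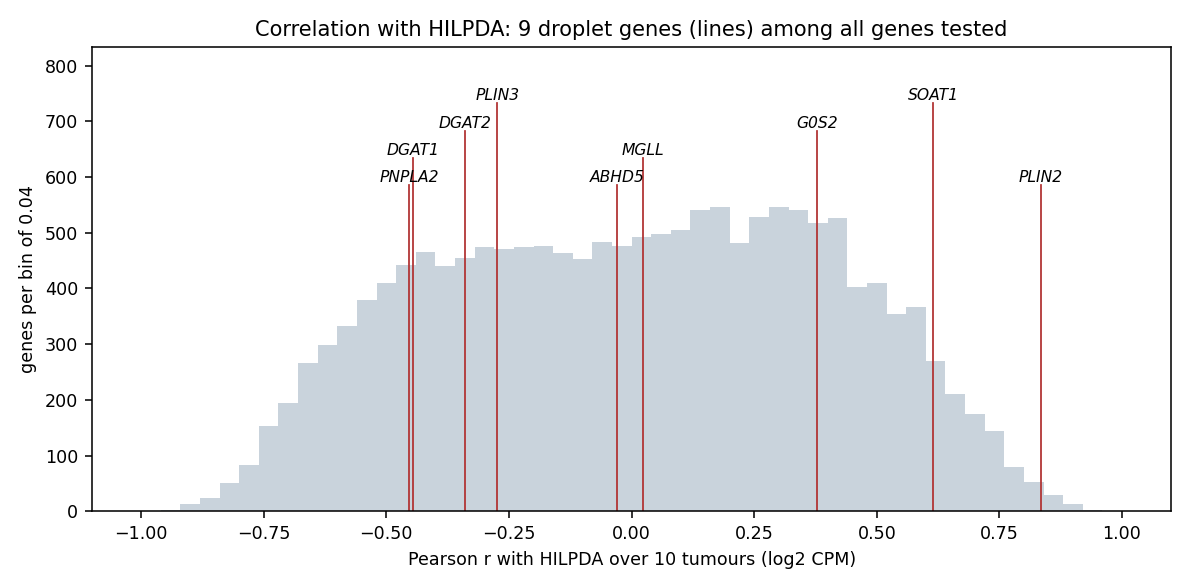
Histogram of Pearson r with HILPDA over the 10 tumours for all 16012 other genes tested (horizontal axis, r of log2 CPM; vertical axis, genes per bin). Lines mark the 9 droplet genes, which spread over the range from -0.453 for PNPLA2 to 0.834 for PLIN2.

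Correlations between the members had both signs. Of 45 pairs, 19 had r above 0, and the median r was -0.03. The pair with the highest r, PNPLA2 and DGAT1, was singled out after the values were seen. It had r = 0.888 and rho = 0.806 (n = 10), given without a test because the pair was picked as the highest. By r with PNPLA2, DGAT1 ranked 287 of the 16012 other genes. Centred on diet means r was 0.874. Fish oil replicates 2 and 4, lowest for both genes, weighed on it, since r was 0.717 without them (n = 8). Leaving out single libraries gave 0.849 to 0.957.

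Other pairs were weaker. PNPLA2 and SOAT1 had the lowest r, -0.633, PLIN3 and G0S2 had 0.538, and PLIN2 and MGLL 0.513, given as descriptions over the same 10 libraries. PLIN2 and PLIN3, the coat proteins, had -0.224, and DGAT1 and DGAT2 had -0.121.

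**Figure D5:**
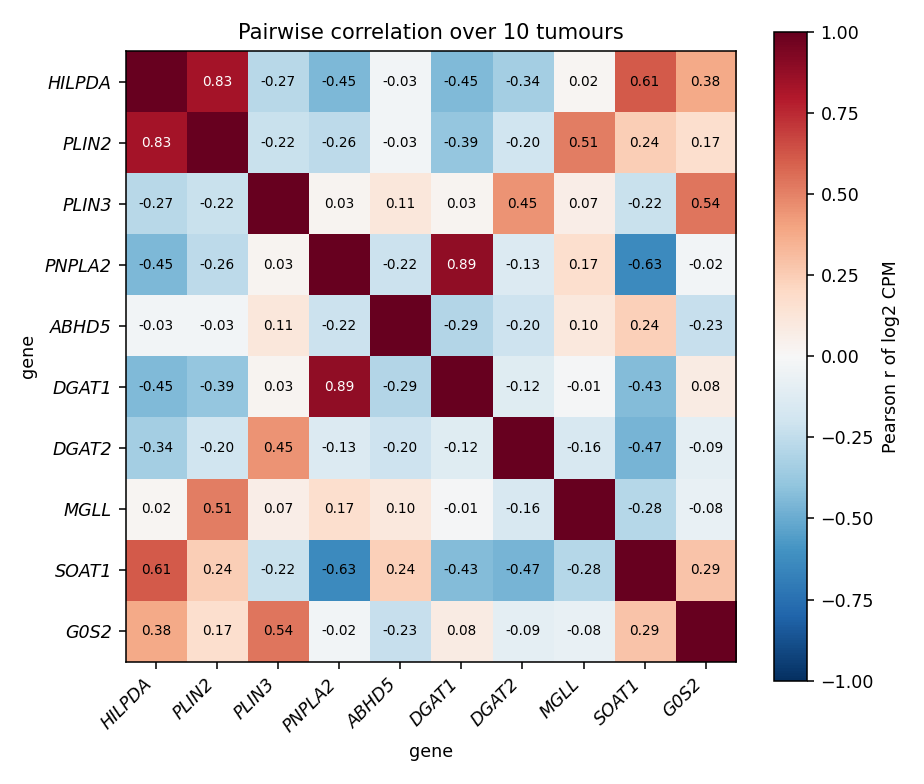
Pearson r of log2 CPM over the 10 tumours for each pair of the 10 genes (rows and columns; colour scale from -1 to 1, each r printed in its cell). The pairs PNPLA2 with DGAT1 (0.888) and HILPDA with PLIN2 (0.834) stand highest of the 45.

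The genes also differed in how much they varied between tumours. The SD of log2 CPM over the 10 libraries was 0.533 for HILPDA and 0.550 for PLIN2, above that of 91.9% and 92.7% of the genes tested. For HILPDA this spread includes the difference it was chosen for. It was 0.404 for G0S2, which rests on few reads, 0.341 for PNPLA2 and 0.250 for MGLL. DGAT1 (0.232), SOAT1 (0.188), PLIN3 (0.157), DGAT2 (0.156) and ABHD5 (0.151) were below the median of all genes tested (0.237). For genes in the level range of the members other than G0S2 the median was 0.199, and DGAT1 was above it. Around the diet means the SD was 0.342 for HILPDA, 0.401 for PLIN2 and 0.363 for PNPLA2, above that of 73.0%, 80.9% and 76.2% of the genes tested.

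The proportion of inhibitor to lipase reads does not depend on how libraries are scaled. It was not corrected for transcript length, so it compares libraries and does not give transcripts of one gene per transcript of the other. Reads of HILPDA per read of PNPLA2 numbered 1.87, 1.44 and 2.13 in control, 1.46, 1.16 and 0.992 with DHA oil, and 1.30, 4.16, 2.72 and 4.51 with fish oil. Fish oil replicates 2 and 4 had the highest proportions of all libraries, and fish oil replicate 1 lay among the DHA oil libraries. Reads of PLIN2 per read of HILPDA ran from 0.234 to 0.448 over all 10 libraries, and the diets overlapped. These proportions include HILPDA and are given without a test.

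The genes most like HILPDA over the 10 libraries, among genes whose log2 CPM averaged 1 or more, were ENSG00000256235 (r = 0.943, rho = 0.952) and ENSG00000187123 (r = 0.930, rho = 0.976). Those most opposed were ENSG00000057593 (r = -0.930, rho = -0.988) and ENSG00000090061 (r = -0.922, rho = -0.927). They are the ends of the correlations of HILPDA with all genes at that level, so high values were bound to appear, and they carry no test. ENSG00000256235 averaged 69.0 ± 10.2 CPM with DHA oil (SD, n = 3), 83.1 ± 21.5 CPM in control (SD, n = 3) and 99.6 ± 17.0 CPM with fish oil (SD, n = 4), a smaller span than that of HILPDA. Centred on diet means its r was 0.939, given as a description because the gene was picked by its r in these libraries.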

How the data were processed

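The deposited table holds raw counts of reads per human Ensembl gene, 1 column for each of the 10 libraries. Per the submitters' processing notes, STAR, HTSeq 0.9.0 and GRCh38 were used, and the labels give a stranded poly(A) kit with single 75 bp reads. The sources used here do not give the annotation release, the strand setting or how reads from the mouse host were treated, so host reads may be among the counts.

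After filterByExpr (minimum count 10) and TMM normalisation, genes were tested in R 4.3.3 with edgeR 4.0.16 (quasi-likelihood F test, 1 fit of all libraries with diet as factor, Benjamini-Hochberg adjustment over all genes, threshold 0.05). The SE is the log2 fold change divided by the square root of F. Intervals are 95%. Log2 CPM used a prior count of 2. Correlations were computed with numpy 2.4.6. Both tests were checked on simulated data, that of the correlations with far fewer genes than were adjusted over here. DESeq2 1.42.0, limma-voom (limma 3.58.1), other scaling, filters, a replicate block and left-out libraries were alternatives.

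The members and lists were chosen with earlier results of these data known. The rule for named genes took all members and the 2 genes at each end of the correlation with HILPDA. The gene name table matched 0 of 33538 identifiers, so lists given by symbol had no values, and no positions or sequences are shown.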

Additional observations from a re-analysis of the deposited data

Results flagged for a closer look

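In the 4 fish oil libraries, each of the 10 genes was checked for a library far from the others. PLIN2 in fish oil replicate 2 was the 1 case, at 51.8 CPM against 31.5 to 33.7 CPM in the other 3, a gap of 0.895 of the range, past Dixon's 95% critical value. Chance gives about 1 in 20 such cases per gene. Without that library the log2 fold change of PLIN2 between the oils was 0.79 in place of 0.99.

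All 3 DHA oil libraries were below the control mean of HILPDA and all 4 fish oil libraries were above it, with a log2 fold change between the oils of 1.03. HILPDA was chosen for that difference, so its opposite sides of the control mean were not tested. The lowest fish oil library (84.7 CPM) exceeded the control mean (84.3 CPM) by little.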

How the results depend on the processing

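The log2 fold changes of PLIN2 and HILPDA kept their direction in every comparison and alternative run. Without the low-count filter edgeR called 1 of the 9 members other than HILPDA, PLIN2, between the oils (adjusted p = 0.0217). Over all genes, edgeR called 0, 1 and 0 (DHA oil against control, fish oil against control, between the oils), 57, 56 and 14 without the filter, 0, 7 and 0 in fits of only the groups compared and 1, 0 and 0 with the replicate block, DESeq2 10, 23 and 1, and limma-voom 3, 0 and 0. The other 9 members were not called against control, and 0 of the 9 correlations with HILPDA passed, in any alternative run. For the correlations, a gene alone at the smallest possible permutation p would not pass the adjustment in these runs either. Their count is therefore a description. Of 786 alternative values for 44 results, 67 turned their sign, in 19 results with a log2 fold change of at most 0.23 or an r of at most 0.45 in size; the cause was not tested.

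With fish oil replicates 2 and 4 both left out, log2 fold changes turned for PNPLA2 (0.29 against control, 0.12 between the oils), DGAT1 (0.16 and 0.008), ABHD5 (-0.15 and -0.16), PLIN3 (0.008 against control) and SOAT1 (-0.029 between the oils), and correlations with HILPDA for PNPLA2 (0.145), DGAT1 (0.193) and MGLL (-0.047). Without the libraries farthest from the HILPDA median, which are the same pair, r was 0.144, 0.192 and -0.047. With Spearman's rho the sign turned for ABHD5 (0.079) and MGLL (-0.224), and on diet-centred values for G0S2 (-0.062) and MGLL (-0.253).

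Replicate numbers are shared by the diets, but deviations of same-numbered libraries correlated at -0.171 to 0.182, so the numbers were not taken to pair samples. With the replicate block edgeR called 0 members in each comparison. The sign turned for ABHD5 (-0.083 against control and -0.096 between the oils), MGLL (0.083) and PNPLA2 (0.058) in fish oil against control, and PLIN3 (-0.015) between the oils. Correlations with HILPDA turned for G0S2 (-0.630) and MGLL (-0.216), and that of PLIN3 was -0.937, from -0.274 without the block. No permutation test was made for correlations with the block.

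Between the oils ABHD5 was -0.001 with DESeq2, -0.004 with its size factors, -0.003 in a fit of only those groups, -0.113 with limma-voom, -0.008 with no filter and -0.012 with a strict one. With limma-voom it was -0.087 in fish oil against control. Leaving out single libraries moved ABHD5 from -0.034 to 0.087 (DHA oil against control), -0.080 to 0.103 (fish oil against control) and -0.091 to 0.091 (between the oils). PLIN3 moved from -0.165 to 0.107, -0.137 to 0.136 and -0.017 to 0.095 in the same order. In fish oil against control DGAT1 moved from -0.186 to 0.014, MGLL from -0.153 to 0.080 and PNPLA2 from -0.293 to 0.072, and G0S2 from -0.287 to 0.280 in DHA oil against control. Correlations with HILPDA moved from -0.413 to 0.348 for ABHD5, -0.265 to 0.257 for MGLL and -0.498 to 0.009 for PLIN3. G0S2, at 13 to 29 reads, was removed by the strict filter.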
